A study of Mus musculus with 22 samples.

Results

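RNA was compared between wild-type lung epithelial cells of mouse embryos at E18.5, shortly before birth, and of mice at 6 months. These are 6 of the 22 libraries of a study of NANCI, a long noncoding RNA, and its neighbour Nkx2-1, and they are the libraries of both ages that carry the genotype NANCI-+/+ (called WT), with 3 at each age. The other 16 libraries carry the NANCI-CreERT2:RFP allele, the Nkx2.1-GFP allele or both. The E18.5 cells were pulled out with magnetic beads that bind EpCAM, a surface protein of epithelial cells. FACS, a sort by fluorescent antibodies, gave the 6-month cells as positive for EpCAM and negative for CD45, a leukocyte protein, and CD31, an endothelial protein. Age and enrichment method therefore change together: every difference below is one between bead-enriched E18.5 cells and sorted 6-month cells, and the contributions of age and method cannot be told apart. All groups are lung cells, and the labels name no strain, sex, number of animals or library protocol. Nothing says whether each library had its own animal, and the spread behind every p-value may be that of technical repeats. The files list 13750 Ensembl gene IDs at E18.5 and 15958 at 6 months, and 13034 are in both. Because the deposited values were normalised separately at each age, each of these 13034 genes was given its percentile rank within its library, from near 0 for the lowest to near 100 for the highest gene. A difference is the mean rank at 6 months minus that at E18.5, in percentile points, with the standard error (SE) and the Benjamini-Hochberg adjusted p from limma. Transcript length is not known to be corrected for, so ranks are compared between libraries and not between genes. Read depth is unknown.

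The alveolar epithelium consists of AT2 cells, which make surfactant and store it in lamellar bodies, and of flat AT1 cells, which form the gas exchange surface. Before birth the maturing AT2 cells use up glycogen stores as they begin to make surfactant, and progenitors still divide. The airway epithelium holds secretory (club and goblet), ciliated, basal and neuroendocrine cells. In adult mice AT2 cells also carry MHC class II molecules, which present peptides to T cells.

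All 6 libraries carried epithelial transcripts at a high rank. Epcam lay at 94.2, 94.4 and 91.2 in the E18.5 libraries and at 94.5, 94.5 and 95 in the 6-month libraries. Cdh1, the gene of E-cadherin, lay between 99.3 and 99.5 in each library. Ptprc, which encodes CD45, lay at 11, 7.5 and 12 at E18.5 and at 13.7, 23.7 and 15.4 at 6 months, so it was low at both ages. Pecam1, which encodes CD31, lay at 17.6, 24.4 and 8.9 at E18.5 and at 88.7, 93.4 and 96.8 at 6 months. The sorted cells thus carried the CD31 transcript at a high rank in spite of the gate. In bulk RNA, a change in the share of a cell type and a change in the RNA each cell makes cannot be told apart.

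Most genes changed rank. With 3 libraries a side an exact permutation test of 1 gene cannot give a p below 0.1, so calls rest on limma's fit across all genes. Of 13034 genes, 61.4% (8003) passed at an adjusted p under 0.05 in limma, 27.4% (3573) higher and 34% (4430) lower at 6 months. With a difference of at least 20 points as well, 12% (1569) were higher and 10% (1305) lower, and in 2869 of these 2874 genes the libraries of the ages did not overlap. Over all 13034 genes the ages did not overlap in 69.4% (9042), so a lack of overlap is common here. The counts of every list below are to be read against the 27.4% higher and 34% lower of all genes. These shares belong to the ranks of all WT libraries and differ where the trend is removed or a library is left out. The median difference over all genes was −1.2 points. Spearman rank correlations were 0.948 to 0.983 between the E18.5 libraries, 0.976 to 0.98 between the 6-month libraries and 0.716 to 0.84 across ages. A pair of libraries stood apart from their own group. E18.5 replicate 3 was the one least like the 6-month libraries (0.716 to 0.749). In 6-month replicate 3 the mean rank of AT1 markers was 79, against 89.7 and 90 in the others, and that of secretory markers was 87.3, against 76.3 and 73.7. Values of a list without either library are given for some lists where a printed count or median moves by over 1.5 times. A list without such values may also have small counts or medians near 0 that move as much.

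The differences followed base composition. Across 12946 genes with an annotated transcript, the difference correlated with the GC share of the transcript (Spearman 0.56) and weakly with its length (−0.15); these are correlations across genes, which are not independent replicates. The fifth of genes with the lowest GC had a median difference of −11.45 points and the fifth with the highest GC one of 13.59 points. Rank fell with GC in all E18.5 libraries (Spearman −0.23, −0.13 and −0.35) and rose slightly in all 6-month libraries (0.08, 0.07 and 0.11). Whether this stems from the libraries or from the cells was not tested. The comparison was therefore repeated after removing each library's GC and length trend, a step chosen after seeing the data, and its values are given for most lists and for named genes whose difference it moves by over 1.5 times. Then 54.1% of 12946 genes passed (25.1% higher, 29% lower), and 7.74% were at least 20 points higher and 6.1% at least 20 points lower. Of the large differences, 1306 were large in both versions with 1 sign, which is 45.7% of those in ranks and 72.9% of those with the trend removed. The median over all genes was then −0.6 points.

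**Figure D1:**
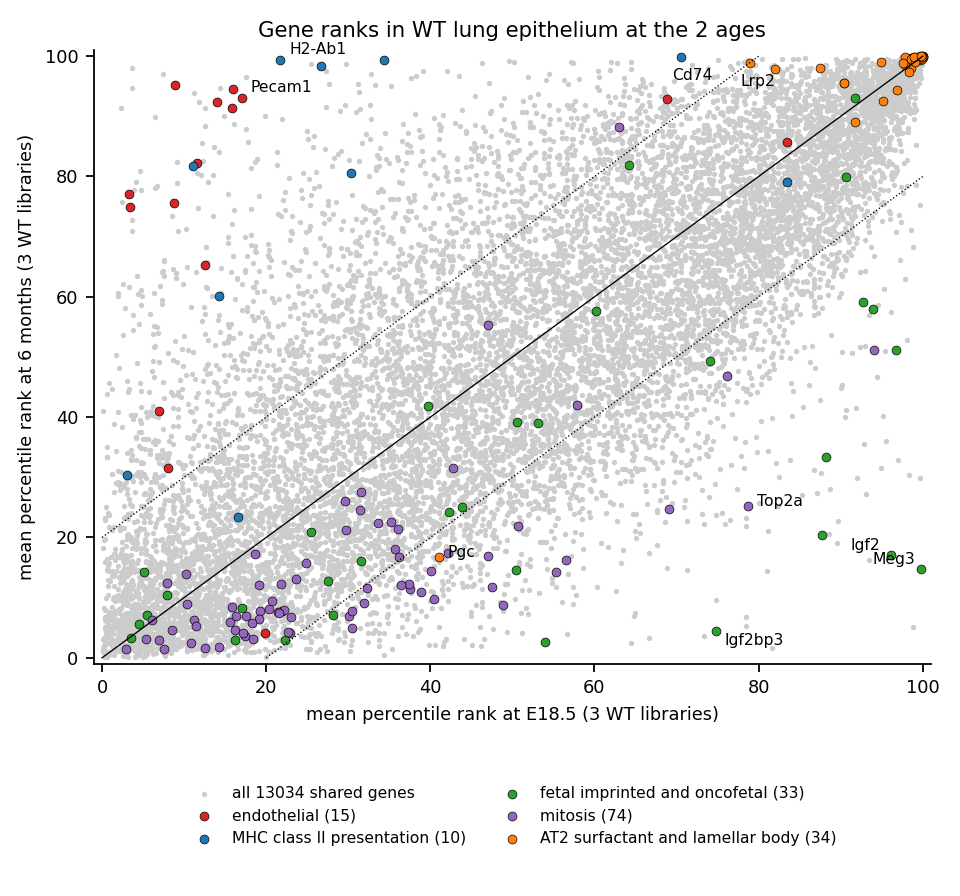
Mean percentile rank of each of the 13034 shared genes at E18.5 (x axis) and 6 months (y axis), 3 WT libraries each, with 5 gene lists in colour; the solid line marks equal rank and the dotted lines a difference of 20 points. Most endothelial and MHC class II genes lie above the upper dotted line, Igf2, Meg3 and Igf2bp3 at the lower right, and AT2 genes at the upper right corner.

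**Figure D2:**
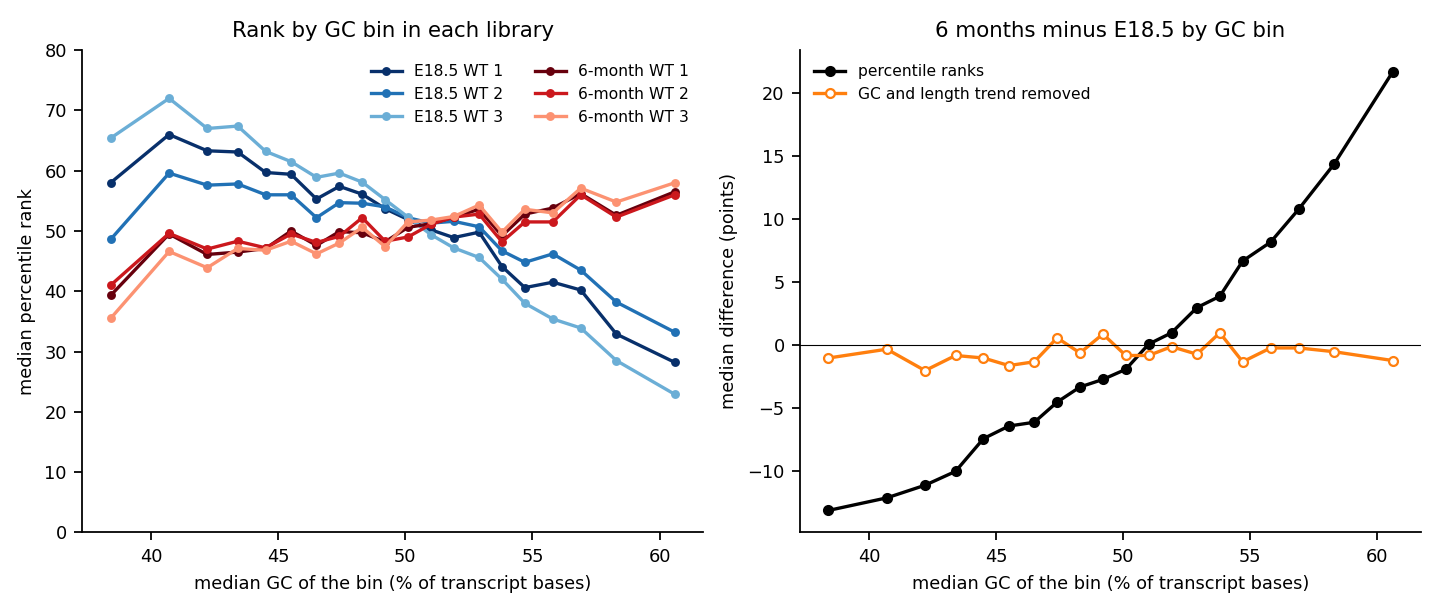
Left, median percentile rank of the genes in 20 bins of transcript GC, 1 line per library; right, median difference (6 months minus E18.5, percentile points) in the same bins before and after the trend was removed. E18.5 replicate 3 falls most steeply with GC, and after removal the medians lie close to 0 in every bin.

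The surfactant programme was at the top of the libraries at both ages, and its order changed. Of 34 AT2 genes measured, 5 ranked higher, 1 ranked lower and 28 did not pass, with a median difference of 0.1 points. With the trend removed 6 ranked higher and 4 lower (median 0.0). Percentiles leave these genes little room, so their positions among the 13034 genes are given, where 1 is the highest. Sftpc, the gene of surfactant protein C, was at position 1, 1 and 2 at E18.5 and at 1 in each 6-month library. Sftpd, a collectin of innate defence, was at 181, 193 and 493 at E18.5 and at 13, 18 and 15 at 6 months. It ranked higher by 2.1 points (limma adjusted p = 0.0444). Sftpb, needed for surfactant film formation, was at 28, 20 and 67 and then at 5, 6 and 6. Lyz2, lysozyme, moved from 18, 17 and 38 to 2, 2 and 3, and Chil1, a chitinase-like protein, from 90, 86 and 252 to 10, 14 and 11. For these 4 genes every 6-month library was placed above every E18.5 library. The opposite order was seen for Ctsh, a protease that processes surfactant proteins, at 12, 10 and 16 and then at 66, 69 and 71. Scd2, a desaturase of fatty acid synthesis, was at 9, 9 and 8 at E18.5 and at 57, 34 and 85 at 6 months.

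On log2 values brought to a common distribution over the 6 libraries, the abundant genes could be tested with more room. There Sftpd was higher by 2.97 ± 0.31 (SE; limma adjusted p = 5.57e-05), Lyz2 by 2.73 ± 0.4 (adjusted p = 0.000375) and Sftpb by 2.14 ± 0.38 (adjusted p = 0.00105). Ctsh differed by −1.9 ± 0.26 (adjusted p = 0.000267) and Scd2 by −2.11 ± 0.31 (adjusted p = 0.000367). Sftpc did not pass (0.3 ± 0.65, adjusted p = 0.702). The GC and length trend was not removed from this scale. Sftpb, at 58.6% GC, differed by 0.3 points in ranks and by 0.1 with the trend removed, and passed in neither. Among AT2 genes of lower rank, Lrp2, the endocytic receptor megalin, lay at 72.2, 82.2 and 82.4 and then at 98.9, 99.3 and 98.1, without overlap (19.9 ± 2.6 points, adjusted p = 0.000615). Il33, an alarmin cytokine, ranked higher by 10.4 ± 1.6 points and Mlc1, a membrane protein, by 15.9 ± 2.7. Pgc, pepsinogen C, was the AT2 gene that ranked lower: 43.6, 43.3 and 36.3 at E18.5 against 15.6, 23.3 and 11.1 at 6 months (−24.4 ± 3.7, adjusted p = 0.00117).

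**Figure D3:**
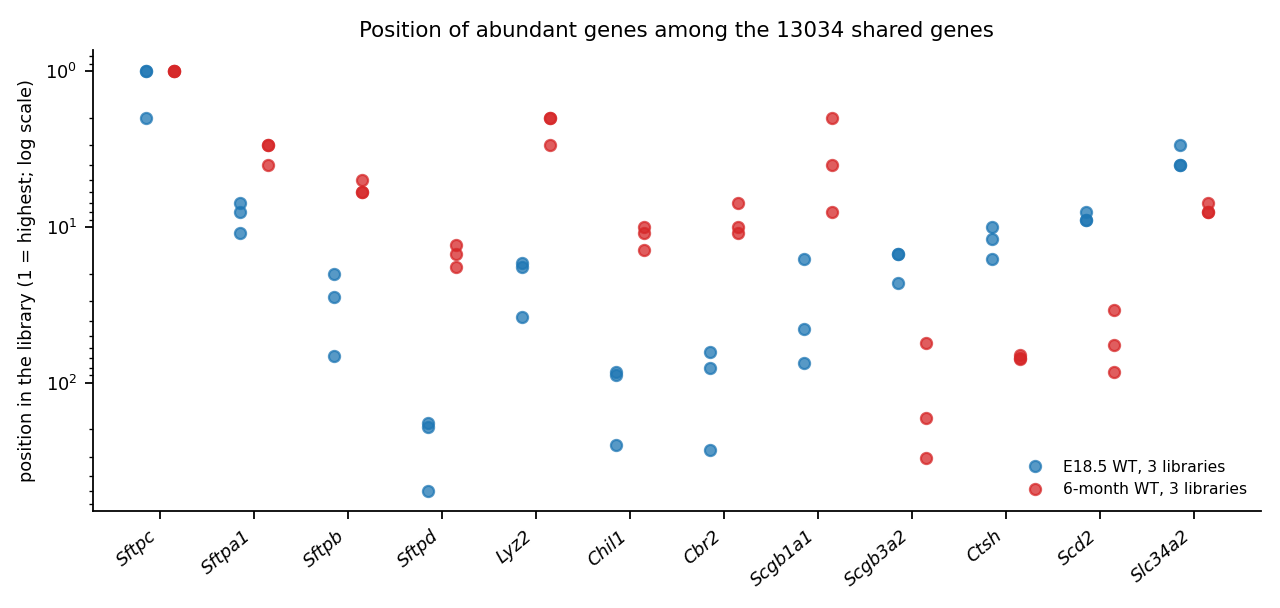
Position of 12 abundant genes among the 13034 shared genes in each WT library (log scale, 1 at the top), E18.5 in blue and 6 months in red. Sftpc stays at positions 1 and 2, Sftpd, Lyz2 and Chil1 move up, and Ctsh, Scd2 and Scgb3a2 move down.

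AT1 genes ranked mostly lower at 6 months. Of 34 measured, 18 ranked lower, 3 higher and 13 did not pass, against 34% lower and 27.4% higher over all genes. The median was −3.8 points (−2.3 with the trend removed). The mean rank of these genes was 90.7 to 92.9 in the E18.5 libraries. Percentiles leave little room there, so a difference of a few points need not be a small change in RNA. Cav1, caveolin, lay at 99.6, 99.4 and 99.6 and then at 96.3, 97 and 96.6 (−2.9 ± 0.6, adjusted p = 0.0031). Ager, the classical AT1 receptor gene, did not pass (99.8, 99.8 and 99 against 99.8, 99.8 and 99.6). Sema3a, a guidance cue, lay at 95, 94.2 and 96.3 at E18.5 and at 51.7, 49 and 19.9 at 6 months (−55 ± 7.7, adjusted p = 0.000822). Pdpn, podoplanin, lay at 95.6, 95.4 and 92.5 and then at 68.6, 67.5 and 39.8 (−35.8 ± 7.1, adjusted p = 0.00352). Both were lowest in 6-month replicate 3. Rtkn2 lay at 98.6, 98.7 and 99.2 and then at 84.4, 82.9 and 37.3 (−30.6 ± 11.2, adjusted p = 0.0449). The size of this difference rested largely on 6-month replicate 3. Rtkn2 did not pass without any one of the E18.5 libraries or with the trend removed. Without 6-month replicate 3, 16 AT1 genes ranked lower, 2 rather than 4 of them by at least 20 points, and the median was −2.5.

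A few AT1 genes went the other way. Igfbp2, an IGF binding protein, lay at 25.7, 25.8 and 12.5 at E18.5 and at 93.2, 93.7 and 58.8 at 6 months (60.6 ± 9.4, adjusted p = 0.00123). Pxdc1 ranked higher by 45.9 ± 5.7 points. These differences were 35 and 28.6 points with the trend removed. Aqp5, a water channel, lay at 79.1, 86.7 and 63.7 and then at 98.6, 98.7 and 97.9, without overlap (21.9 ± 5, adjusted p = 0.00672), but differed by 2.2 points with the trend removed.

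Of 26 airway secretory genes measured, 11 ranked higher and 3 lower (median 4.1, 8.1 with the trend removed), beside 27.4% and 34% of all genes. Scgb3a1, a secretoglobin, lay at 7.1, 43.1 and 31.7 at E18.5 and at 92.8, 83.3 and 98.8 at 6 months (64.3 ± 8.8, adjusted p = 0.000718). Bpifb1, a secreted defence protein, lay at 9.8, 17.4 and 9.4 and then at 80.1, 79.4 and 97.3 (73.4 ± 5.4, adjusted p = 7.32e-05). The mucin Muc5b ranked higher by 52.1 ± 10.3 points. Ltf, lactoferrin, lay at 44.5, 31.9 and 98.4 at 6 months and at 4.9 or less at E18.5. These genes were each highest in 6-month replicate 3. Cldn10, a claudin of club cells, did the opposite: 96.2, 95.8 and 94.6 at E18.5 against 29.8, 25.2 and 52.9 at 6 months (−59.5 ± 6.7, adjusted p = 0.000337). Krt15, a keratin of airway progenitors, lay at 82, 82.4 and 67.9 and then at 8.6, 20 and 55.6 (−49.4 ± 11.2, adjusted p = 0.00646). Without 6-month replicate 3 the counts were 10 and 3 and the median was 2. Among the most abundant, Scgb1a1, the main club cell protein, moved from position 45, 16 and 75 to 4, 8 and 2, while Scgb3a2, a secretoglobin of early airway, moved from 15, 15 and 23 to 168, 306 and 56.

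Of 41 ciliated cell genes 20 ranked higher, 8 lower and 13 did not pass (median 10.7). With the trend removed 18 ranked higher and 5 lower (median 7.9). Foxj1, the master regulator of motile cilia, lay at 69.4, 73.2 and 43.2 at E18.5 and at 97.1, 97.7 and 98.2 at 6 months (35.8 ± 7, adjusted p = 0.00339). Tekt4, a ciliary microtubule protein, ranked higher by 36.6 ± 4.1 points and the protocadherin Cdhr4 by 38.2 ± 4.3. Foxj1 differed by 20 and Tekt4 by 20.7 points with the trend removed. The 3 that ranked lower by at least 20 points were Mcidas (−34.3), Rfx3 (−29.8) and Ccno (−25.3). Mcidas and Ccno act early in the making of multiciliated cells and Rfx3 is a transcription factor of cilia, with a difference of −15.9 points once the trend was removed. Without 6-month replicate 3, 13 ciliated genes ranked higher and 6 lower, and the median was 9.8. That fit called 6683 of all genes rather than 8003, so the 27.4% of the full fit is not its background.

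Goblet and mucus genes ranked low on average at both ages (mean rank 17.3 to 20.3 in the E18.5 and 26.1 to 35.4 in the 6-month libraries): of 12 measured, 6 ranked higher and 1 lower, and the median of 7.3 points was 0.4 with the trend removed. Tff2, a trefoil peptide, lay at 0.1 or less at E18.5 and at 37.4, 23.3 and 62.2 at 6 months (40.9 ± 8.4, adjusted p = 0.00426). Of 7 basal cell genes 4 ranked higher and 2 lower (2 and 3 with the trend removed), Itgb4, an integrin of hemidesmosomes, by 47.2 ± 5.1 points (24.2 with the trend removed). Another 5 basal markers, among them Krt5, Krt14 and Trp63, were listed at 6 months alone and were in no comparison. Of 11 neuroendocrine genes 3 ranked higher and 4 lower, but 1 and 2 with the trend removed and 1 and 3 without E18.5 replicate 3. Ddc, which makes dopamine and serotonin, lay at 64.3, 62.6 and 67.9 at E18.5 and at 8.6, 6.7 and 7 at 6 months (−57.5 ± 2.6, adjusted p = 1.32e-05).

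Of 35 transcription factors of lung epithelium 13 ranked higher and 11 lower (median −0.2, 0.1 with the trend removed), beside the 27.4% and 34% of all genes. Single factors differed by wide margins. Nkx2-1 itself lay at 98.5, 98.9 and 99 at E18.5 and at 98.3, 98.8 and 98.6 at 6 months, a difference of −0.2 ± 0.5 points that did not pass (adjusted p = 0.709). With the trend removed it was −1.8 points (adjusted p = 0.0248). Foxp2, a transcriptional repressor of the developing lung epithelium (GRCm38 chromosome 6, 14901349 to 15441977), lay at 87.8, 85.1 and 93.1 and then at 28.7, 30.6 and 25 (−60.6 ± 3.5, adjusted p = 2.76e-05). Sox9, a factor of distal lung progenitors, lay at 45.5, 44.8 and 49.3 at E18.5 and at 0.4, 1.2 and 8.2 at 6 months (−43.3 ± 2.8, adjusted p = 4.67e-05).

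Genes of the CCAAT enhancer binding proteins, transcription factors of mature alveolar cells, ranked higher at 6 months. Cebpd lay at 13.3, 11.9 and 8.3 and then at 97.1, 92.7 and 91.8 (82.7 ± 3.2, adjusted p = 1.18e-05), and Cebpb at 22, 26 and 17.8 and then at 93.2, 85.8 and 89.6 (67.6 ± 3.6, adjusted p = 2.18e-05). Neither overlapped between ages. With the trend removed the difference was 81.8 points for Cebpd and 40 for Cebpb. Cebpa, which AT2 cells require, ranked higher by 4.2 points and by 0.5 with the trend removed, where it did not pass. Tbx2 ranked higher by 56.3 ± 5.6 points.

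Fetal growth genes showed some of the longest moves down. Of 33 imprinted and oncofetal genes measured at both ages, 22 ranked lower and 2 higher, where 34% and 27.4% of all genes did. The median was −14.8 points (−17.2 with the trend removed, where 18 ranked lower and 4 higher), and 12 were lower by at least 20 points. Igf2, the fetal insulin-like growth factor (GRCm38 chromosome 7, 142650766 to 142666816), lay at 96.6, 96.3 and 95.5 at E18.5 and at 15.2, 18 and 18.2 at 6 months (−79 ± 2.9, adjusted p = 1.13e-05). On the common log2 scale it was lower by −5.83 ± 0.18. Meg3, a maternally expressed long noncoding RNA (chromosome 12, 109541001 to 109571726), was at position 37, 14 and 17 at E18.5 and at 11323, 11453 and 10502 at 6 months. Its ranks were 99.7, 99.9 and 99.9 against 12.9, 12 and 19.4 (−85.1 ± 3.3, adjusted p = 1.14e-05).

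The 3 Igf2bp genes, whose proteins bind Igf2 and other mRNAs, moved together. Igf2bp3 lay at 76.4, 70.1 and 77.9 and then at 5.1, 3.8 and 4.5 (−70.4 ± 3). Igf2bp1 differed by −51.3 ± 2.5 points and Igf2bp2 by −54.8 ± 3. The paternally expressed Peg3 lay at 86.6, 83.8 and 92.7 and then at 17.4, 21.4 and 22.3 (−67.3 ± 3.6, adjusted p = 2.14e-05). Grb10, an adaptor that restrains insulin signalling, differed by −45.5 ± 2.2 points. Imprinted genes that did not pass were Igf2r, the receptor that clears Igf2 (91.2, 91.3 and 92.9 against 92.6, 94.1 and 92.7), Gnas, Mest and Sgce. Sgce differed by 15.5 points with the trend removed (adjusted p = 0.0452). The 2 that ranked higher were Sox4 (17.7 ± 4.5) and Acvr2b (9.1 ± 2.1, 6 with the trend removed).

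Other large negative differences came from genes of several lists and of none. Hif3a, a hypoxia-inducible factor subunit (chromosome 7, 17031507 to 17062427), had the largest negative one of all genes tested, with 98.6, 98.6 and 99.3 at E18.5 and 5.1, 3.8 and 6.8 at 6 months (−93.6 ± 2.9, adjusted p = 8.83e-06). On the common log2 scale this was −8.95 ± 0.25. Egln3, an oxygen-sensing hydroxylase (−80 ± 2.7), and Ak4, a mitochondrial adenylate kinase (−71.7 ± 3.2), were also among the largest, as were Meg3 and Igf2 above. Fras1 and Frem2, which encode proteins of the epithelial basement membrane, lay at 92.5, 93.1 and 95.1 and at 88.8, 88.5 and 91.6 at E18.5. At 6 months they lay at 23.2, 14 and 11.4 and at 21.3, 20.3 and 15.8. Fstl1, a secreted BMP antagonist, lay at 99.6 in all E18.5 libraries and at 24.9, 26.3 and 38.2 at 6 months. Tgfb2, a growth factor, and Fbn2, a fibrillin of fetal elastic fibres, differed by −68 ± 2.8 and −66.9 ± 3.2 points. Such genes were named only from those whose ages did not overlap, so that trait was fixed by the choice. The trend-removed differences of these genes lay within 3 points of those given.

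**Figure D4:**
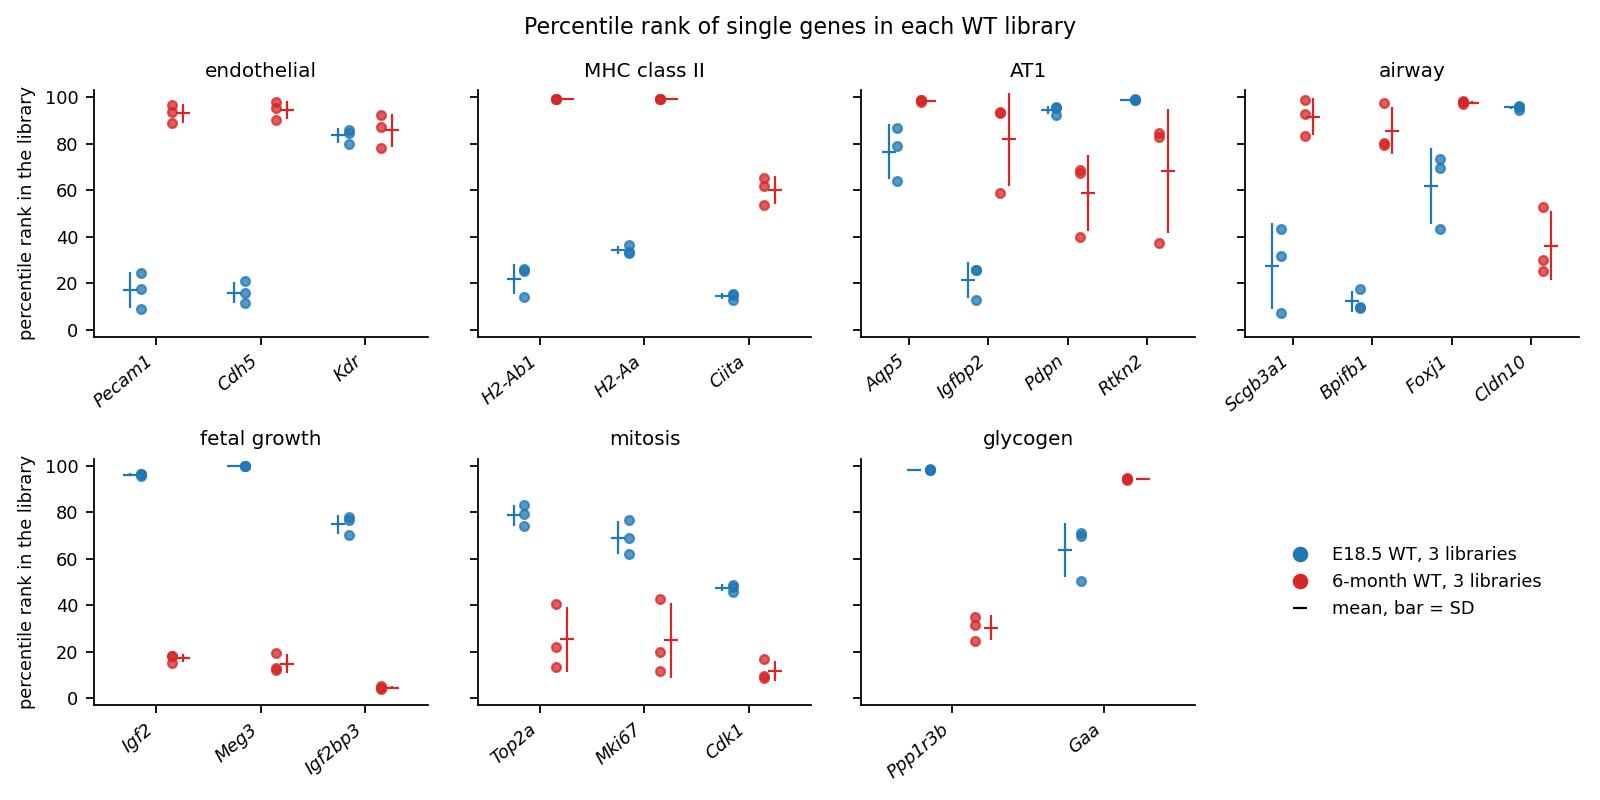
Percentile rank of 22 genes in each WT library, E18.5 in blue and 6 months in red, with the mean and SD of 3 libraries beside the points. Igf2, Meg3 and Ppp1r3b fall from above 95 to below 36, H2-Ab1 and Cdh5 go the other way, and Kdr overlaps between ages.

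Genes of mitosis ranked lower at 6 months. Of 74 measured, 57 ranked lower, 1 higher and 16 did not pass, and 22 were lower by at least 20 points, where 10% of all genes were. The median was −12.7 points (−10.9 with the trend removed, where 52 ranked lower, 11 by at least 20 points). Top2a, which untangles chromosomes, lay at 79, 74 and 83 at E18.5 and at 21.9, 40.5 and 13.4 at 6 months (−53.4 ± 6.7, adjusted p = 0.000506). Mki67, the gene of the Ki-67 proliferation marker, lay at 69, 61.8 and 76.4 and then at 20, 42.7 and 11.7 (−44.3 ± 7.8, adjusted p = 0.0022). Cdk1, the kinase that drives mitosis, lay at 47.8, 45.8 and 48.8 and then at 9.5, 16.8 and 8.8 (−35.8 ± 2.9, adjusted p = 9.65e-05). Kif11, a spindle motor, lay at 34.9, 29.8 and 47.8 and then at 10.7, 16 and 7.4 (−26.2 ± 4.7, adjusted p = 0.00231). The ages did not overlap for these 4 genes, and 6-month replicate 2 was the highest of the 6-month libraries in each. Kif11 differed by −14.2 points with the trend removed. Without 6-month replicate 3, 41 mitosis genes ranked lower.

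Many mitotic promoters hold a CCAAT box and a CHR element (cell cycle genes homology region). The 120 bases before the start of Top2a, Cdk1 and Kif11, genes that ranked lower, show this layout, with matches to CCAAT and TTTGAA on either strand in capitals. They are from RefSeq on GRCm38.p6, 5′ to 3′ on the gene's strand: chr11:99024190-99024309 (minus strand), chr10:69352913-69353032 (minus) and chr19:37376262-37376381 (plus).
Top2a: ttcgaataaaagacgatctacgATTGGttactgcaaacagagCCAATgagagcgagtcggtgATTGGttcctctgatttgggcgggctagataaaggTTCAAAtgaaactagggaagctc
Cdk1: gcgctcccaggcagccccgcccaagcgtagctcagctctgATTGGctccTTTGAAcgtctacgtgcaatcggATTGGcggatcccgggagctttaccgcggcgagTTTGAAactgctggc
Kif11: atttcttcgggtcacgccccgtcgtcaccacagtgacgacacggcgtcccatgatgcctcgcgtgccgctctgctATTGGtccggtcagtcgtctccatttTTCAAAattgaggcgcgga
In Top2a the CCAAT matches begin 98, 78 and 58 bases before the start and the CHR match 23 bases before it. In Kif11 the CCAAT match begins 45 and the CHR match 19 bases before the start. Of the 74 mitosis genes, 61 had a promoter in the table, and 42 of them (68.9%) held CCAAT, 22 (36.1%) TTTGAA and 16 (26.2%) both in these 120 bases. Among 10077 of the 13034 shared genes with a promoter the shares were 28.4%, 5.04% and 1.36%, and among all 27025 genes with a RefSeq promoter they were 24.2%, 8.28% and 1.77%. A match is a run of letters and not evidence of binding.

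Of 74 DNA replication genes 37 ranked lower and 11 higher (median −7.4, −4.3 with the trend removed). E2f7, a repressor of the E2F family, lay at 46, 45.1 and 47.2 and then at 3, 6.3 and 6.3 (−40.9 ± 2.2, adjusted p = 2.14e-05). Rrm1, a subunit of ribonucleotide reductase, differed by −31.4 ± 3.1 points. Gins2, a subunit of the replicative helicase, went the other way: 7.6, 6.4 and 3.7 at E18.5 against 50, 61.2 and 60.4 at 6 months (51.3 ± 3.5, adjusted p = 5.42e-05).

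MHC class II genes ranked far higher at 6 months. Of 10 measured, 9 ranked higher and none lower, 8 by at least 20 points, where 12% of all genes were. The median was 48 points (38.1 with the trend removed). H2-Ab1, a beta chain (chromosome 17, 34257689 to 34269419), lay at 25.1, 26 and 14.1 at E18.5 and at 99.2, 99.2 and 99.4 at 6 months (77.5 ± 3.9, adjusted p = 1.72e-05). On the common log2 scale this was 7.05 ± 0.3. The alpha chain H2-Aa lay at 33.3, 36.4 and 33.1 and then at 99.3, 99.3 and 99.4 (65 ± 2.6, adjusted p = 1.19e-05). H2-DMa, which loads peptides, differed by 70.6 ± 3.3 points. Ciita, the activator of the class II genes, lay at 14.8, 12.9 and 15.3 and then at 61.6, 65.3 and 53.6 (45.8 ± 3.5). The invariant chain Cd74 was at position 3181, 2410 and 5911 at E18.5 and at 20, 26 and 19 at 6 months. None of these genes overlapped between ages. Leukocytes also carry class II genes: Ptprc lay at 23.7 or less in every library, and of 15 leukocyte markers measured at both ages 6 ranked higher and 3 lower, with mean ranks from 13.8 to 15.9 in the E18.5 libraries and from 19 to 20.1 in the 6-month libraries. Another 13 leukocyte markers were listed at 6 months alone, and Csf1r, a macrophage gene measured at both ages, reached ranks of 48.9 to 63.5 at 6 months. The part of leukocyte RNA in the class II values was not tested.

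Class II promoters hold a Y box, an element that contains a CCAAT box in reverse. H2-Aa and H2-Eb1 (ranks 32, 30.2 and 17.8 at E18.5 and 98.6, 98.1 and 98.6 at 6 months) are shown with the match to CTGATTGG in capitals, which begins 51 and 62 bases before the start. They are chr17:34287824-34287943 (minus strand) and chr17:34305747-34305866 (plus), 120 bases each from RefSeq on GRCm38.p6, 5′ to 3′.
H2-Aa: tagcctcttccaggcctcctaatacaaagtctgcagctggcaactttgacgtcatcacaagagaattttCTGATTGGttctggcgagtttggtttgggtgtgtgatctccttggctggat
H2-Eb1: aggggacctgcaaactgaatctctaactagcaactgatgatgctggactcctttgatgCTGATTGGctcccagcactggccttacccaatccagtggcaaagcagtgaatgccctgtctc
Of the 10 class II genes 7 had a promoter in the table and 2 of these held the match on either strand, against 4.59% of the shared genes with a promoter and 3.33% of all genes in the table.

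Of 19 genes of class I presentation and the immunoproteasome, 12 ranked higher and 1 lower (median 15.9, 9.8 with the trend removed). Tap2, a peptide transporter, lay at 21.8, 20 and 14.9 and then at 83.2, 78.5 and 87 (64 ± 3.6, adjusted p = 2.62e-05), and Psmb8, an immunoproteasome subunit, differed by 50.4 ± 5.2 points. Of 40 interferon-stimulated genes 19 ranked higher and 8 lower (median 7.9, 8.8). Ifitm3, which blocks virus entry, differed by 48.4 ± 5.8 points, while Ifit2, which binds viral RNA, lay at 53.6, 42.4 and 55.4 and then at 17.4, 18.7 and 9 (−35.5 ± 4.3, −22.1 with the trend removed). Of 33 epithelial defence genes 13 ranked higher and 5 lower (15 and 3 with the trend removed), beside 27.4% and 34% of all genes. Pigr, which carries IgA across epithelium, lay at 2.1, 2.9 and 1.9 at E18.5 and at 93.6, 82.5 and 98.3 at 6 months (89.1 ± 4.3, adjusted p = 1.51e-05). Lrg1, a secreted glycoprotein (chromosome 17, 56119678 to 56122001), had the largest positive difference of all genes tested: 2.8, 7.5 and 0.6 at E18.5 against 98.4, 97.4 and 98.3 at 6 months (94.5 ± 3.2, adjusted p = 8.83e-06).

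Endothelial genes ranked far higher in the sorted 6-month cells. Of 15 markers measured at both ages, 13 ranked higher, each by at least 20 points, 1 ranked lower and 1 did not pass (median 70.6, 63 with the trend removed). Another 11 markers were listed at 6 months alone. The mean rank of the 15 was 18 to 21.9 in the E18.5 and 67.2 to 80.4 in the 6-month libraries, highest in replicate 3. Cdh5, the endothelial cadherin, lay at 15.8, 20.7 and 11.3 and then at 90.3, 95.1 and 98 (78.6 ± 3.8, adjusted p = 1.51e-05). Ptprb, an endothelial phosphatase, differed by 86.3 ± 3.5 points and Calcrl, a receptor of adrenomedullin, by 78.4 ± 3.3. Kdr, a VEGF receptor, lay at 79.9, 84.7 and 85.9 and then at 77.9, 87.1 and 92.1 and did not pass, though it did with the trend removed (9.9 points, adjusted p = 0.00831). Prox1, a lymphatic factor, ranked lower (−15.8 ± 3.4, −10.4 with the trend removed). Genes known from endothelium stood among the largest differences of all: Thbd (80.3 ± 3.4), Ace (79 ± 3.7), Acvrl1 (78.8 ± 4.1) and Clec14a (76.3 ± 5). What part endothelial RNA has in the other differences was not tested.

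Fibroblast and smooth muscle genes went the same way: of 19 measured, 14 ranked higher and 2 lower (median 24.1, 21.9 with the trend removed), and 11 more were listed at 6 months alone. Their mean rank was 28.5 to 32.1 in the E18.5 and 51.4 to 62.7 in the 6-month libraries. Col1a2, a chain of type I collagen, lay at 9.8, 15.5 and 5.6 and then at 60.3, 58.5 and 76.1 (54.7 ± 5.1, adjusted p = 0.000165). Mgp, matrix Gla protein, lay at 14, 27.5 and 12.9 and then at 59.3, 57.2 and 89.3 (50.5 ± 8.6). Leukocyte genes moved both ways. Csf1r, the receptor of a macrophage growth factor, lay at 27.9, 26.2 and 16.5 and then at 62.4, 63.5 and 48.9 (34.7 ± 5, adjusted p = 0.000874). Stab1, a scavenger receptor of macrophages and some endothelium, differed by 37.5 ± 6.2 points (21.5 with the trend removed) and Plac8 by 12.3 ± 1.6. On the other side F13a1, a macrophage transglutaminase gene, lay at 23.4, 26.7 and 25.4 and then at 6.1, 3.8 and 1.7 (−21.3 ± 2), and Mrc1, a macrophage lectin, differed by −18.7 ± 2.6 points (−11.7 with the trend removed).

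Of 20 glycogen genes 10 ranked lower and 2 higher (median −11.1, −5.3 with the trend removed). Ppp1r3b, which targets a phosphatase to glycogen, lay at 98.1, 98 and 98.7 at E18.5 and at 31.4, 35 and 24.4 at 6 months (−68 ± 3.4, adjusted p = 1.79e-05). Phka2, a subunit of phosphorylase kinase, differed by −44.8 ± 3.3 points. Gaa, the lysosomal glucosidase that degrades glycogen, went up from 69.7, 71 and 50.2 to 94, 94.1 and 94.5 (30.6 ± 5.1), by 7.8 points with the trend removed.

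Cholesterol synthesis genes ranked higher, 18 of 23 with 1 lower (median 14.7, 16.6 with the trend removed). Mvk, mevalonate kinase, lay at 22.5, 21.3 and 12 and then at 73, 72.5 and 57.1 (49 ± 5.2, adjusted p = 0.000255). Of 36 fatty acid and phospholipid genes 12 ranked higher and 7 lower (median 0.1), beside 27.4% and 34% of all genes. With the trend removed the counts were 13 and 3, beside 25.1% and 29% of all genes. Of 37 genes of xenobiotic metabolism 22 ranked higher and 4 lower (median 8.2), and 24 and 2 with the trend removed (median 8.8). Cyp4b1, a lung cytochrome P450, lay at 27.5, 30.6 and 23.7 and then at 97.2, 97.4 and 98.1 (70.3 ± 3.1, adjusted p = 1.27e-05). Cyp2b10 lay at 36.1, 57.4 and 21.4 and then at 97.4, 96.3 and 96.6 (58.4 ± 7.9). Of 35 antioxidant genes 16 ranked higher and 2 lower (median 6.5, 6.3 with the trend removed and 3.4 without E18.5 replicate 3). Gpx3, a secreted peroxidase, lay at 11.4, 13.5 and 19.4 and then at 88.9, 90.5 and 90.7 (75.3 ± 3.3), and Hmox1, heme oxygenase, differed by 46.6 ± 3.9.

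Mitochondrial and ribosomal genes depended on the libraries and the trend. Of 76 respiratory chain genes 23 ranked higher and 17 lower (median 3), beside 27.4% and 34% of all genes. The mean rank was 58.9 in E18.5 replicate 3, against 70 in the other E18.5 libraries, and without that library 26 ranked higher and 24 lower with a median of −0.6. Without 6-month replicate 3 the counts were 21 and 11. Ndufs7, a complex I subunit, lay at 30.6, 33.4 and 17.5 and then at 87.2, 81.7 and 84.8 (57.4 ± 4.7), and by 22.9 with the trend removed. Uqcrq differed by 47.4 points in ranks and 47.6 with the trend removed. Of 79 ribosomal protein genes 4 ranked higher and 20 lower, with the trend removed 7 and 28, and without E18.5 replicate 3 the counts were 10 and 34. Rpl31 lay at 98.4, 98.4 and 95.2 and then at 82.7, 74.1 and 77.9 (−19.1 ± 2.2). Copies and pseudogenes of ribosomal protein genes share reads, and since no source used here says how these were counted, single members are uncertain.

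**Figure D5:**
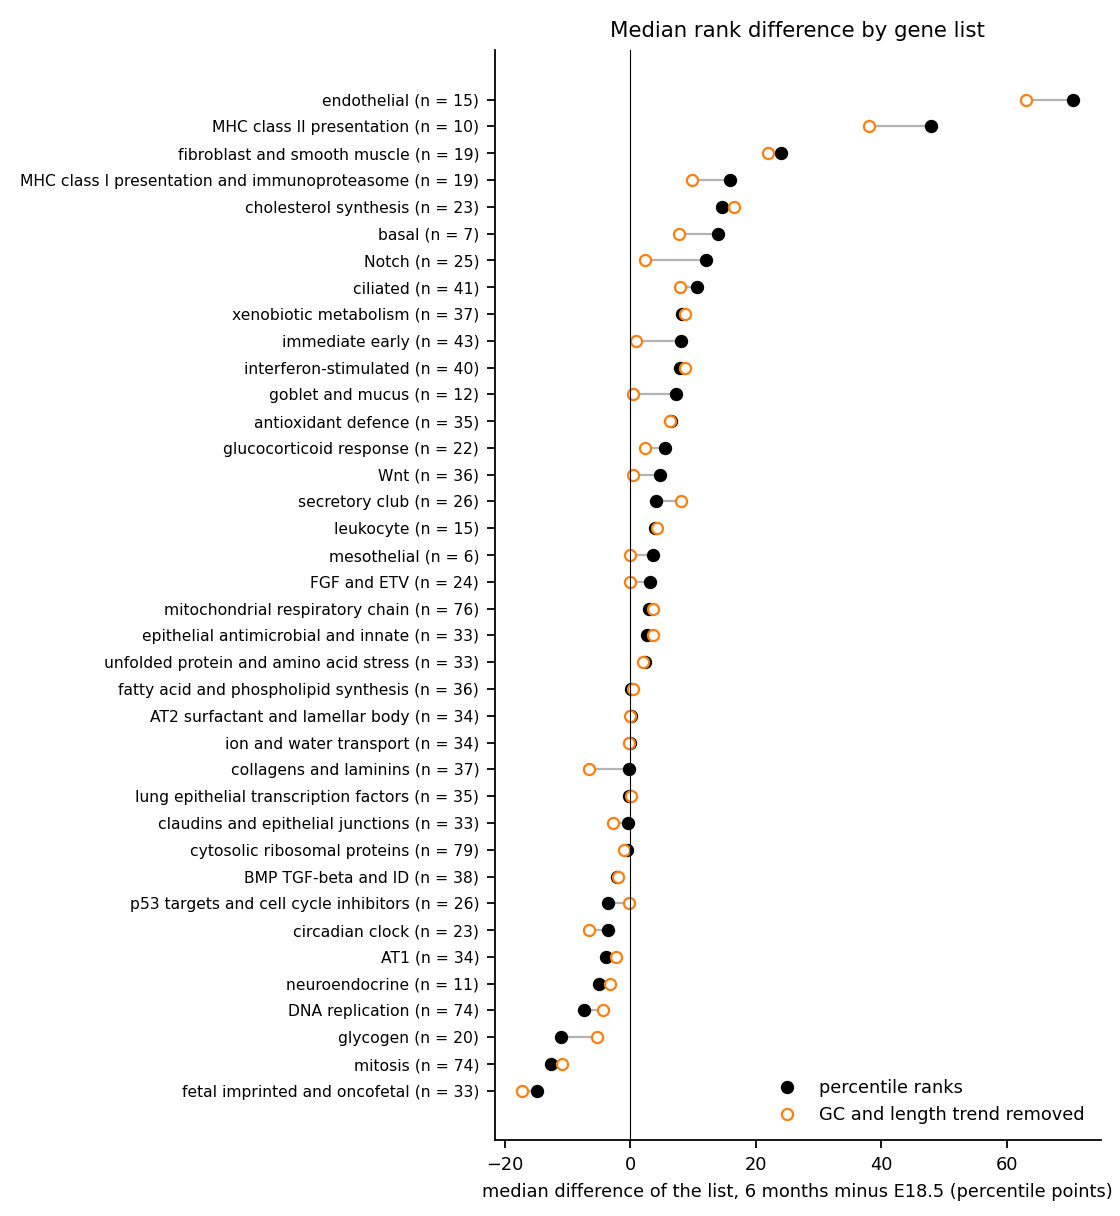
Median difference in rank (6 months minus E18.5, percentile points) of each gene list, with the number of genes measured; filled points are ranks and open points ranks with the GC and length trend removed. Endothelial, MHC class II and fibroblast lists lie farthest to the right and fetal imprinted, mitosis and glycogen lists farthest to the left, and the lists of Notch, immediate early and goblet genes move close to 0 when the trend is removed.

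In the signalling lists genes ranked higher and lower beside each other, and the counts are to be read against the 27.4% higher and 34% lower of all genes. Of 25 Notch genes 14 ranked higher and 6 lower, with a median of 12 points that was 2.4 with the trend removed. The ligand Jag2 lay at 24.8, 27.5 and 24.2 and then at 69.4, 78.7 and 82.8 (51.5 ± 4.1, adjusted p = 9.33e-05), and by 28.9 with the trend removed. The receptor Notch1 lay at 48.1, 51.2 and 51.3 and then at 82.6, 89.6 and 92.4 (38 ± 3.2, 17 with the trend removed), and Notch4, a receptor of endothelium, differed by 56 ± 7. Of 36 Wnt genes 17 ranked higher and 9 lower. The counts were 14 and 11 with the trend removed, 11 and 4 without 6-month replicate 3, and 12 and 7 without E18.5 replicate 3. The ligand Wnt11 lay at 14, 15.2 and 8.9 and then at 63.5, 72 and 69.4 (55.6 ± 3.4), and the receptor Fzd2 at 68.8, 71.1 and 64.8 and then at 30.6, 44.1 and 22.7 (−35.8 ± 5.5).

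Of 24 genes in a list of FGF, ETV and hedgehog genes 9 ranked higher and 7 lower, and 7 and 7 with the trend removed. Dusp6 differed by 22.2 ± 2.3 points and Frs2 by −24.5 ± 2.8. Shh, the hedgehog ligand of the budding epithelium, lay at 81.8, 82.8 and 80.5 and then at 50.6, 47.3 and 54.4 (−31 ± 2.9, adjusted p = 0.000173). Of 38 BMP and TGF-beta genes 8 ranked higher and 14 lower, near the shares of all genes, and with the trend removed the counts were 8 and 9. The inhibitor Smad6 lay at 26.9, 22.6 and 26.1 and then at 69.1, 81.1 and 88.6 (54.4 ± 5.1, 22.7 with the trend removed), while the BMP effector Smad9 differed by −49.3 ± 4.1. Of 33 junction genes 7 ranked higher and 11 lower (3 and 12 with the trend removed). Cldn3 lay at 72.5, 75.7 and 39.8 and then at 98.9 in each library (36.2 ± 8.4, 14.2 with the trend removed), whereas Cldn4 lay at 75.6, 78.4 and 54.1 and then at 21.6, 24.3 and 31.6 (−43.5 ± 6.5).

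Immediate early and stress genes, which cells switch on rapidly after stimulation, ranked mostly higher: 24 of 43, with 2 lower. The median of 8.1 points was 0.9 with the trend removed, where 16 ranked higher and 5 lower. Junb, an AP-1 subunit, lay at 54.8, 56.7 and 37.2 and then at 99.5, 99.3 and 98.7 (49.6 ± 4.9, adjusted p = 0.000202), and by 24.5 with the trend removed. Hspa1a, an inducible heat shock protein, lay at 50, 53.2 and 60 and then at 99.6, 92.5 and 99.3 (42.7 ± 3.3), lowest in replicate 2 among the sorted libraries. Its near-identical copy Hspa1b can share its reads. Klf2 differed by 72.5 ± 3.3 points. Of 23 clock genes 2 ranked higher and 6 lower (4 and 9 with the trend removed). Per3, a period gene, lay at 87.3, 90.6 and 92 and then at 41, 44.2 and 49.6 (−45 ± 3.2), and Nr1d1, a repressor of the clock, at 48.3, 59 and 53.8 and then at 91.3, 86.7 and 92.4 (36.4 ± 3.3). No source used here gives the hour of collection.

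Of 37 collagen, laminin and basement membrane genes 12 ranked higher and 17 lower (median −0.2, −6.5 with the trend removed), beside 27.4% and 34% of all genes. Col15a1, a basement membrane collagen, lay at 51.4, 61.8 and 58.1 and then at 23.5, 10.2 and 17.2 (−40.1 ± 4.3, adjusted p = 0.000271), while the fibroblast collagen Col3a1 differed by 53.7 ± 5.7. Of 33 genes of the unfolded protein and amino acid response 11 ranked higher and 3 lower (17 and 6 with the trend removed), beside the same shares. Psat1, an enzyme of serine synthesis, lay at 94.9, 93.7 and 90.8 at E18.5 and at 30.6, 27.6 and 23.7 at 6 months (−65.8 ± 3.2, adjusted p = 1.55e-05), and Shmt2, which turns serine into glycine in mitochondria, differed by −27.7 ± 5 (−45.6 with the trend removed). Both serine genes were thus lower without overlap. Of 22 glucocorticoid response genes 11 ranked higher and 2 lower (median 5.5), and 10 and 4 with the trend removed (median 2.3). Fkbp5, a chaperone that is a common marker of this hormone, went against the count: 63.8, 68.1 and 67 at E18.5 and 28.9, 22.4 and 32 at 6 months (−38.5 ± 3.5, adjusted p = 0.000152). Of 26 p53 targets and cell cycle inhibitors 8 ranked higher and 9 lower, near the shares of all genes. Bax, a cell death effector, differed by 32.9 ± 5.3 points in ranks and by −4.3 with the trend removed, so its direction is not settled. Cdkn2b, an inhibitor of cell cycle entry, lay at 73.3, 76.9 and 69.8 and then at 51.7, 40.5 and 32 (−31.9 ± 5.2). Of 34 ion and water transport genes 5 ranked higher and 13 lower. Fxyd3, a regulator of the sodium pump, lay at 46.3, 49.2 and 38.8 and then at 18.1, 14.9 and 24.8 (−25.5 ± 3.8).

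The same age difference was set beside libraries of other genotypes, which share no library with the WT comparison and were enriched by the same methods. These are Nkx (1 Nkx2.1-GFP allele; 3 and 3 libraries) and Double (1 allele each of NANCI-CreERT2:RFP and Nkx2.1-GFP; 3 at E18.5 and 4 at 6 months). Of the 2874 large WT differences, 99.6% (2862) had the same sign in Nkx and 96.9% (2785) in Double libraries, against 87.5% and 84.8% of all genes. Hif3a differed by −86.8 points in Nkx and −91.4 in Double, Igf2 by −85.1 and −88.2, Lrg1 by 82 and 89.7, and H2-Ab1 by 79.3 and 85.8. The endothelial markers had a median of 57.1 points in Nkx and 19.4 in Double libraries, against 70.6 in WT. Cdh5 differed by 79.1 in Nkx and 34.2 in Double libraries, and the WT to Double contrast of that difference was −44.3 points (interaction, limma adjusted p = 0.000144). By the RNA of Xist and of Y genes, all 4 of the 6-month Double libraries had a female pattern, against 1 of 3 6-month WT libraries and 2 of 3 E18.5 libraries of either genotype. With this pattern as a covariate, a step chosen after seeing the data, the contrast for Cdh5 was −47.9 points (limma adjusted p = 8.5e-05).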

How the data were processed

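The deposited tables list 1 value per Ensembl gene and library. The authors' deposited values are on a log2 scale, and their distributions differ between ages. Within an age they are alike but not identical. The lowest value was 1.66, 1.132 and 1.132 in the E18.5 and 1.475, 1.317 and 1.158 in the 6-month WT libraries. The likeness was read from the values as quantile normalisation per age. The submitters' processing notes name STAR, limma and mm9, with no versions or roles; no source used here gives the counter, the filter on genes, strand or depth. Values of genes in both ages' files were ranked within each library as percentiles. WT libraries were compared with limma 3.58.1 (R 4.3.3, moderated variance with a mean trend), with Benjamini-Hochberg adjustment over 13034 genes at 0.05. The test was run on simulated libraries with independent noise, few shifted genes and no GC trend. That setting differs from these data, so it cannot show how well the calls here are calibrated. GC, length, symbols and coordinates are from GENCODE vM21 on GRCm38 by Ensembl ID, not mm9. The GC and length trend was removed from log2 values on a common distribution in 20 GC by 10 length bins, which were then ranked again.

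The gene groups and lists were chosen with earlier results of these data known. Named genes are the 15 largest differences each way, up to 5 called genes per list by size, the 10 highest at each age, and Nkx2-1. The 15 each way were drawn from called genes whose ages did not overlap, leaving out symbols of gene models, clones and pseudogenes. Others (among them Epcam, Cdh1, Ptprc, Kdr, Ciita, Cdk1, Kif11, Aqp5, Ager, Cav1, Sftpd, Sftpb, Chil1, Ctsh, Scd2 and Scgb3a2) were chosen after their values were seen. Alternatives were other scales, filters, covariates and libraries left out. Samples with the same replicate number did not deviate together, so no pairing was used.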

Additional observations from a re-analysis of the deposited data

Results flagged for a closer look

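The age difference of some genes differed between WT and the other genotypes by a test of the difference itself (age by genotype interaction, limma over 22 libraries, adjusted p under 0.05). In Nkx libraries this held for 563 of 13034 genes (4.32%), 157 of them among the large WT differences, which are 2874 of the 13034 genes. The large differences were chosen on WT libraries that also enter this test, so the overlap is not independent of that choice. Fcgbp, a mucus protein gene, differed by 26 points in WT and −36.1 in Nkx (interaction −62.1, limma adjusted p = 0.000316). Tff2 differed by 40.9 points in WT and 83 in Nkx (interaction 42.1, limma adjusted p = 0.0148), and Lrp2 by 19.9 and 65.5 (interaction 45.6, limma adjusted p = 0.00946).

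In Double libraries 1854 of 13034 genes (14.2%) differed in this way, 628 of them among the 2874 large WT differences, with the same limit. Gif, gastric intrinsic factor, differed by −69.6 points in WT and 19.4 in Double libraries (interaction 89, limma adjusted p = 1.12e-05). Gpx3 differed by 75.3 points in WT and 7.8 in Double (interaction −67.5, limma adjusted p = 1.17e-07). Shh differed by −31 points in WT and 10.1 in Double (interaction 41.1, limma adjusted p = 3.91e-08). The mucin Muc5ac differed by 13.2 points in WT and 63.1 in Double (interaction 49.9, limma adjusted p = 5.76e-07). Pecam1 differed by 76 points in WT and 37 in Double (interaction −39, limma adjusted p = 0.0042). The sex pattern of the libraries, read from Xist and Y genes, changes with this contrast: 4 of 4 6-month Double libraries were of the female pattern, against 1 of 3 6-month WT libraries, and 2 of 3 at E18.5 in both genotypes. With that pattern as a covariate, chosen after seeing the data, 1643 genes differed in Double, 1545 of them called in both fits with 1 sign, and 606 in Nkx (513 in both). The Double contrasts of Gif, Gpx3, Shh, Muc5ac and Pecam1 passed in that fit too. The endothelial list, whose median was 70.6 points in WT and 19.4 in Double libraries, moves with this contrast; its part in the other values was not tested.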

How the results depend on the processing

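The count of 8003 genes called in ranks was 7002 with the GC and length trend removed and 6386 when E18.5 WT replicate 3 was left out as well; with other scales, filters, covariates or all 22 libraries it was 6425 to 8915, and at an adjusted p under 0.01 it was 5605. Leaving out 1 library gave 6637 to 8142 calls. The count of 2874 large differences was 1792 with the trend removed and 1701 without E18.5 WT replicate 3 too, and 2456 to 3321 with 1 library left out. A replicate block gave 7522 calls; same-numbered samples across ages correlated at 0.23, −0.19 and −0.03 in their deviations, so the number does not pair them. The 219 results tallied here are those of 217 named genes and the counts of 8003 and 2874. With the trend removed 197 stayed the same, 13 were weaker, 2 gained the call and 7 reversed. A weaker gene lost its call. The count of 8003 is among the 197 and that of 2874 among the 13. The reversed differences, with the trend removed and then also without E18.5 WT replicate 3, were −4.67 and −3.62 for Agpat2, −4.26 and −7.62 for Bax, −0.19 and −1.21 for Bbc3, −2.32 and −0.47 for Ddit4, −7.76 and −6.38 for Hes6 and −15.62 and −17.57 for Sfn. Creb3l1 reversed in the first alone (−0.46) and Ndufa13 in the second alone (−3.81). The cause was not tested. No single-gene result reversed when 1 library was left out. Of 1314 values with 1 library left out, which include those of the counts of 8003 and 2874, 19 lost the call. These were among Agpat2, Krt17, Per2, Resp18, Rplp1, Rtkn2 and Uchl1. Without read counts, the error of low genes cannot be set against their depth.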

Other observations

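Because Hif3a, Egln3 and Ak4 were among the largest negative differences, a list of 46 hypoxia response genes was added after those values were seen, so its counts describe and support nothing. Of 44 measured at both ages, 21 ranked lower and 10 higher (median −5.4 points, −6.8 with the trend removed), beside 34% and 27.4% of all genes. Ndrg1, a stress-induced gene, lay at 95.5, 96.7 and 92.6 at E18.5 and at 32.5, 25.5 and 36.4 at 6 months, without overlap. Kdm3a, a histone demethylase, differed by −31 points and Pdk1, which restrains pyruvate oxidation, by −26. Epas1, which encodes HIF-2 alpha, went the other way: 78, 86.5 and 83.9 at E18.5 against 99.3, 99.6 and 99.7 at 6 months. The glycolytic gene Ldha (1.6 points), the glucose transporter Slc2a1 (10.4) and Hif1a (−3.7) did not pass.

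Some genes are listed at 1 age alone, by a filter that no source used here describes, and were in no comparison. Their percentiles refer to all genes in that age's files. Of 716 IDs at E18.5 alone, 244 are protein-coding. Dlk1, an imprinted growth regulator, lay at 99.6, 99.8 and 99.3, H19, an imprinted noncoding RNA, at 90.6, 84.9 and 80.9, and Hmga2, an oncofetal chromatin protein, at 65.5, 56.4 and 71.9. Of 2924 IDs at 6 months alone, 1740 are protein-coding. Inmt, a methyltransferase abundant in lung, lay at 95.4, 95.4 and 93.2 and Bpifa1, a secreted airway defence protein, at 82.9, 98.2 and 99.8. The endothelial genes Cldn5 and Plvap lay at 90.6, 92.5 and 97 and at 90.4, 92.4 and 96.5. The leukocyte genes Coro1a and Tyrobp lay at 27.7, 28.6 and 20 and at 18.4, 21 and 11.4.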
